A study of Mus musculus with 3 samples.

Results

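The genes of DNA replication and mitosis examined here were 38 genes chosen by symbol and not by a cut on their values. The choice was made with earlier results of these data known. They were 16 genes that copy DNA or supply and maintain it in S phase, and 22 genes that condense, pull apart and partition chromosomes. All 38 were listed in the count tables of every plate, among 28851 nuclear-encoded gene symbols listed in at least 1 table. The assay was SORT-seq: cells are sorted into 384-well plates and their transcripts counted by molecular identifiers. The 3 plates were 1 of E11.5 kidney cells taken without culture from LGR6-EGFP-IRES-CreERT2 mice, 1 of E12.5 kidney explants cultured for 5 days and 1 of E11.5 kidney explants in culture for 7 days (the title) or 5 days (the stage label). Both cultured plates came from LGR6-EGFP-IRES-CreERT2/ROSA26-tdTomato mice, in which CreERT2, a recombinase switched on by tamoxifen, is driven from the Lgr6 locus and can turn on a tdTomato reporter. All mice were on the C57BL/6 background, and the culture medium held fetal calf serum. The number of embryos behind each plate, tamoxifen treatment and the sort gate are not given in the sources used here. Each group was 1 plate and cells are not replicates, so no test was made and every 95% interval below covers counting error only. The cultured plates differed from the uncultured one in culture, reporter genotype and sequencing run at the same time. The E12.5 cultured plate differed from it in start stage too. The parts of these in a difference cannot be told apart.

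A dividing cell copies its DNA in S phase and separates the copies in mitosis, and most of the 38 genes are transcribed mainly around those phases. In S phase the MCM helicase opens the double strand, ribonucleotide reductase and thymidylate synthase supply building blocks, and the PCNA clamp holds the polymerases on the strand. Later Cdk1 with its cyclins starts mitosis, kinetochores bind chromosomes to the spindle, and the anaphase-promoting complex ends mitosis by marking cyclins for destruction. In the embryonic kidney, division renews the nephron progenitors of the cap mesenchyme, which express Six2, while their descendants form nephrons.

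Promoters of the 2 lists differ in how often they carry certain short elements. Of these promoters 4 are shown, because their genes had the most counts of their list among promoters with the list's element. They are RefSeq sequences of build GRCm38.p6, 200 bases before the annotated start, printed 5' to 3' on the gene's own strand, which is the minus strand for each. Those of Mcm6 (chr1:128359706-128359905) and Mcm7 (chr5:138171884-138172083), subunits of the MCM helicase, have E2F elements in capitals. These were searched on both strands as TTGGCGC, as TTCGCGC or as TTCCCGC, and in Mcm6 the first 2 forms overlap on opposite strands. E2F factors are known for switching on S phase genes. Those of Top2a (chr11:99024190-99024389), the topoisomerase that untangles DNA, and Mki67 (chr7:135716380-135716579), which coats mitotic chromosomes, have in capitals the cell cycle homology region (CHR), searched as TTTGAA and TTTAAA, and the NF-Y box CCAAT, both on either strand. The CHR is known as the element bound by the DREAM and MuvB complexes. Each sequence is marked for its own list's elements only. Matches to CCAAT in Mcm6 and Mcm7, and to TTGGCGC in Mki67, are thus left in lower case.
Mcm6: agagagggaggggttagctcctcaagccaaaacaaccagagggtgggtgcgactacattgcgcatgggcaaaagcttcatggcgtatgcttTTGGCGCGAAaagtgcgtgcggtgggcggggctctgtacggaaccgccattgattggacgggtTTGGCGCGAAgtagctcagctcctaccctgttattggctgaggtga
Mcm7: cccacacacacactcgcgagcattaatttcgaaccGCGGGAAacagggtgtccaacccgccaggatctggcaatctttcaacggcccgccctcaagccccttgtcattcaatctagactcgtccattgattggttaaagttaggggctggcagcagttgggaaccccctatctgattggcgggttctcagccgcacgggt
Top2a: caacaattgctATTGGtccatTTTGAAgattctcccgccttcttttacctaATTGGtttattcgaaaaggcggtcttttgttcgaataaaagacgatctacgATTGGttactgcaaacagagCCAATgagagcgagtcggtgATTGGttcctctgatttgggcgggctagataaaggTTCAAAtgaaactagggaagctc
Mki67: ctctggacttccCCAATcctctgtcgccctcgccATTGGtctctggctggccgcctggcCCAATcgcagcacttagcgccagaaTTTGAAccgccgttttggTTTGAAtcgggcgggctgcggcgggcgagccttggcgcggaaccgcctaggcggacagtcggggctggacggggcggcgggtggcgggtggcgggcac
Over 300 bases around the start, 14 of the 16 replication genes and 18 of the 22 mitosis genes had an entry; Gins2, Mcm4, Aurkb, Ccna2, Kif20a and Tpx2 had none. An E2F element lay in 9 of 14 replication promoters (64.3%) and 3 of 18 mitosis promoters (16.7%), against 8.21% of 27025 genes. CHR and CCAAT together lay in 15 of 18 mitosis promoters (83.3%) and 4 of 14 replication promoters (28.6%), against 10.9% of all genes. CCAAT, with or without a CHR, was common in both lists. It lay in 16 of 18 mitosis promoters (88.9%) and 10 of 14 replication promoters (71.4%), against 37.9% of all genes. A match is a run of letters and does not show that a factor binds there.

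After setting apart control wells, wells labelled as holding more than 1 cell, and wells under 1000 counts or over 30% mitochondrial counts, 337, 200 and 300 single-cell wells remained on the uncultured, E12.5 cultured and E11.5 cultured plates. These wells held 4159791, 2349129 and 3210838 counts, with a median depth per well of 6732, 9212 and 8992 counts, and the median share of mitochondrial counts 7.28%, 3.61% and 3.49%. Levels are given as CPM, counts per 1000000 counts of nuclear-encoded genes summed over these wells. All 3 tables share the same 384 well names, which are plate positions and not shared cells. Kidney markers were present on every plate (Six2 at 312, 77.6 and 42.4 CPM, Wt1, a kidney mesenchyme and podocyte factor, at 686, 169 and 247 CPM), but the makeup of the plates differed. The summed level of 9 stromal markers was 2848, 19951 and 26342 CPM and that of 6 nephron progenitor markers 1084, 262 and 118 CPM. The 5 erythroid markers stood at 996, 178 and 0.311 CPM, with 1 of 5 counted on the E11.5 cultured plate, and the 4 granulocyte markers at 0, 0 and 1060.0 CPM. The part of this makeup in the differences below was not tested.

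The cultured plates had lower levels of both lists. The replication genes summed to 2662 CPM on the uncultured, 1667 on the E12.5 cultured and 1232 on the E11.5 cultured plate. The mitosis genes summed to 4402, 2047 and 1905 CPM in the same order. On the E11.5 cultured plate the replication genes were thus 2.16-fold lower than on the uncultured plate (interval 2.08 to 2.24) and the mitosis genes 2.31-fold lower (2.24 to 2.38). In a sum over wells, fewer dividing cells and less of these RNAs per cell cannot be told apart. Between the E11.5 plates, 8 of 16 replication genes and 15 of 22 mitosis genes were at least 2-fold lower, where 11.3% of 15770 genes with at least 10 counts were. None of the 38 was at least 2-fold higher, where 20.8% of all genes were. The 95% interval of the ratio lay below 1 for 16 of 16 and 22 of 22 genes, against 26.8% of all genes, and above 1 for none, against 30.7%. An interval clears 1 more readily for a gene with more counts. The interval shares here and below were not matched for counts. The median log2 ratio was -0.95 for the replication genes and -1.15 for the mitosis genes, against 0.07 over all genes. Without the 32, 7 and 9 wells of more than 3 times their plate's median depth, 4 of 16 replication genes stayed past 2-fold (Mcm7, Rrm2, Hells and Cdc6), and the count for mitosis genes was again 15.

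**Figure D1:**
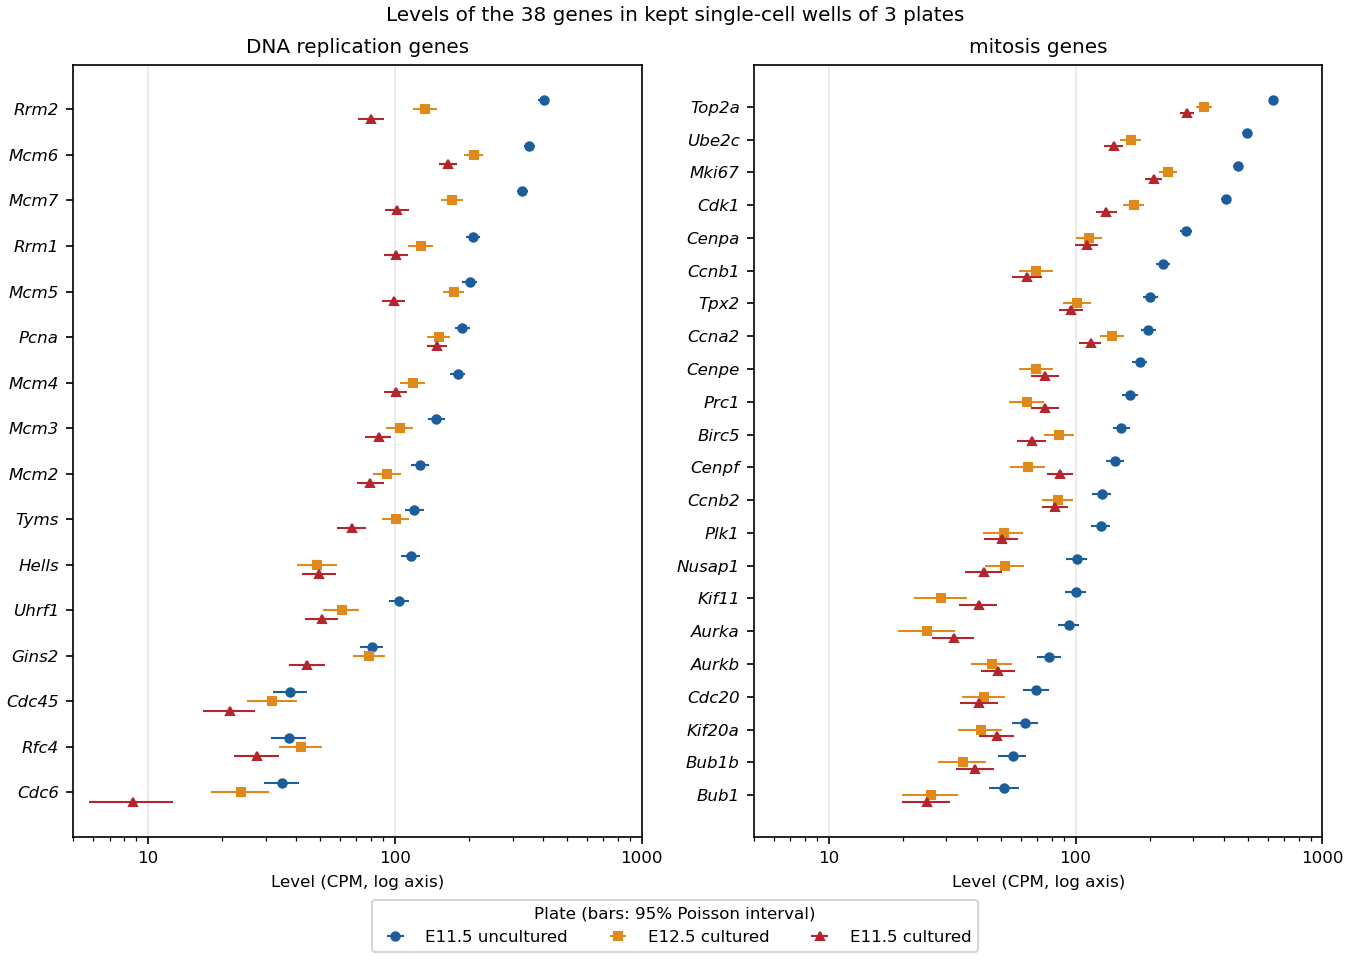
Level of each gene (CPM, log axis) on the uncultured (circles), E12.5 cultured (squares) and E11.5 cultured plate (triangles), with 95% Poisson intervals. Each of the 38 genes lies lower on the E11.5 cultured than on the uncultured plate, from Rrm2 at 80.4 against 401 CPM to Pcna at 148 against 188 CPM.

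On the E12.5 cultured plate the mitosis genes were further below the uncultured level than the replication genes. Here 10 of 22 mitosis genes were at least 2-fold below the uncultured plate, where 13.1% of 15174 genes were. Of the replication genes 2 of 16 were, Rrm2 and Hells, a share near that of all genes. None of the 38 was at least 2-fold higher, against 18.9%. The interval lay below 1 for 13 of 16 and 22 of 22 genes, against 27.9%, and above 1 for none, against 27.8%. Summed, the mitosis genes stood at 0.465 of the uncultured level (0.450 to 0.480) and the replication genes at 0.626 (0.603 to 0.649). The mitosis list held 1.65 counts per replication count on the uncultured plate (1.61 to 1.69), 1.23 after culture from E12.5 (1.18 to 1.28) and 1.55 after culture from E11.5 (1.49 to 1.61). The 2 cultured plates are each compared with the same uncultured plate. They differ from each other in start stage and, by the title, in days of culture, and the parts of these cannot be told apart. Compared with each other, the E11.5 cultured plate had 0.739 of the replication level of the E12.5 cultured plate (0.707 to 0.773) and 0.931 of its mitosis level (0.896 to 0.967). Among single genes, 1 of 16 replication genes, Cdc6, and 0 of 22 mitosis genes were at least 2-fold lower there. For replication this is near the share of all genes, 4.51% of 15342. None of the 38 was 2-fold higher, against 8.32%. The ratio's interval lay below 1 for 11 of 16 replication and 6 of 22 mitosis genes, against 13.2% of all genes, and above 1 for 2 mitosis genes, Cenpf and Kif11, against 14.3%.

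**Figure D2:**
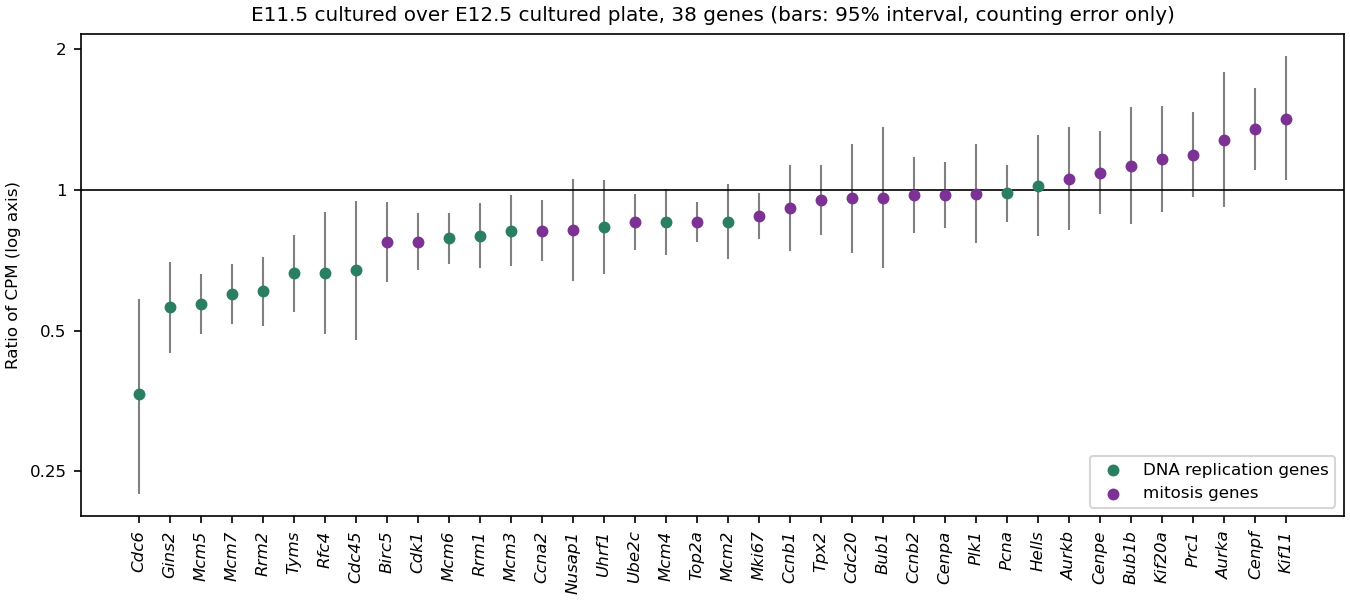
Ratio of CPM of the E11.5 cultured over the E12.5 cultured plate for each gene (log axis), in rising order, with 95% intervals. The 8 lowest points are replication genes, from Cdc6 at 0.366, and the 8 highest are mitosis genes, up to Kif11 at 1.42.

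The 6 subunits of the MCM helicase differed in how far they lay below the uncultured level. Mcm7 stood at 329 CPM on the uncultured, 171 on the E12.5 cultured and 102 on the E11.5 cultured plate, and Mcm6 at 351, 209 and 164 CPM. Mcm7 was thus 3.22-fold lower on the E11.5 cultured plate (2.85 to 3.64) and Mcm6 2.13-fold lower (1.93 to 2.36). Mcm5 stood at 201, 174 and 99.04 CPM, close to the uncultured level on the E12.5 cultured plate (0.863) and 0.492 of it on the E11.5 cultured plate. Mcm2, Mcm3 and Mcm4, other subunits of the ring, were at 0.562 to 0.628 of the uncultured level on the E11.5 cultured plate and at 0.659 to 0.734 on the E12.5 cultured plate. The genes that load and start the helicase had few counts. Cdc6, which brings the MCM ring onto origins, stood at 34.9, 23.8 and 8.72 CPM, 3.997-fold lower on the E11.5 cultured plate (2.65 to 6.22). Gins2, part of the GINS complex that activates the helicase, stood at 80.8, 78.8 and 44.2 CPM, and its E11.5 cultured level alone lay outside the intervals of the others. Cdc45, its partner in the active helicase, stood at 37.7, 31.9 and 21.5 CPM.

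Genes of nucleotide supply had the lowest summed ratio among the replication genes, 0.341 on the E11.5 cultured plate (0.315 to 0.369). Rrm2, the subunit of ribonucleotide reductase that is made in S phase, stood at 401 CPM on the uncultured, 132 on the E12.5 cultured and 80.4 on the E11.5 cultured plate. It was 4.99-fold lower on the E11.5 cultured plate (4.37 to 5.71) and had the lowest ratio of the 38 genes in that comparison. Rrm1, the large subunit of the same enzyme, which is known to vary less through the cycle, stood at 208, 127 and 102 CPM, 2.05-fold lower on the E11.5 cultured plate (1.80 to 2.33). Tyms, thymidylate synthase, stood at 120.1, 101 and 66.96 CPM. On the E11.5 cultured plate the clamp genes lay nearest the uncultured level, with a summed ratio of 0.782 (0.703 to 0.869); on the other cultured plate theirs was 0.855, beside 0.877 for helicase loading and activation. Pcna, the sliding clamp, stood at 188, 151 and 148 CPM, 1.27-fold lower on the E11.5 cultured plate (1.13 to 1.42), and Rfc4, of the clamp loader, at 37.3, 41.7 and 27.7 CPM. A pseudogene of Pcna, listed apart as Pcna-ps2, had 34, 14 and 20 counts, and reads shared between such copies may have been split in counting. Hells and Uhrf1, which carry DNA methylation onto the new strand, stood at 116, 48.5 and 49.5 CPM and at 104, 60.9 and 50.8 CPM. Hells differed between the cultured plates by less than counting error (ratio 1.02, 0.797 to 1.31).

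Among the genes that start mitosis, Cdk1, the kinase itself, stood at 407 CPM on the uncultured, 172 on the E12.5 cultured and 133 on the E11.5 cultured plate, 3.05-fold lower on the last (2.74 to 3.40). Its B-type cyclins differed in size of change. Ccnb1 stood at 226, 69.4 and 63.6 CPM, 3.55-fold lower (3.05 to 4.15), while Ccnb2 stood at 128, 84.7 and 82.5 CPM, 1.55-fold lower (1.33 to 1.80). The intervals of these 2 cyclins did not overlap. A feature named Ccnb2-ps was listed apart with at most 2 counts. Ccna2, the cyclin that acts from S phase on, stood at 197, 141 and 115 CPM. The Aurora kinases also differed from each other. Aurka, which acts at the spindle poles, stood at 93.8, 25.1 and 32.1 CPM, 3.73-fold lower on the E12.5 cultured plate (2.83 to 4.996), and Aurkb, which acts at centromeres, at 78.4, 45.97 and 48.6 CPM, 1.70-fold lower there (1.37 to 2.14). Birc5 (survivin), which works with Aurkb, and Plk1, a kinase of mitotic entry, stood at 0.435 and 0.397 of the uncultured level on the E11.5 cultured plate.

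Ube2c, the ubiquitin-conjugating enzyme of the anaphase-promoting complex, stood at 493, 167 and 143 CPM, 3.46-fold lower on the E11.5 cultured plate (3.13 to 3.84). Its partners in that step lay nearer the uncultured level: Cdc20, which activates the complex, stood at 0.589 and the checkpoint genes Bub1 and Bub1b, which restrain Cdc20 until chromosomes are attached, at 0.484 and 0.707 of the uncultured level. Cenpa, the histone variant of centromeres, stood at 281, 114 and 111 CPM, and the cultured plates differed by less than counting error (ratio 0.976, 0.830 to 1.15). Cenpe, the kinetochore motor, stood at 182, 69.4 and 75.4 CPM. Cenpf, a large kinetochore protein, stood at 144, 64.3 and 86.6 CPM and was 1.35-fold higher on the E11.5 than on the E12.5 cultured plate (1.10 to 1.65). Kif11, the motor that pushes spindle poles apart, showed the same order at 100.1, 28.5 and 40.5 CPM (1.42-fold, 1.05 to 1.94). Kif20a, a motor of the late spindle midzone, stood at 62.5, 41.3 and 47.96 CPM and was the mitosis gene with the highest ratio to the uncultured plate, 0.767 on the E11.5 cultured plate (0.625 to 0.940). Prc1, Tpx2 and Nusap1, which bundle and seed spindle microtubules, stood at 0.423 to 0.479 there. Top2a stood at 629, 331 and 283 CPM, 2.23-fold lower (2.06 to 2.40), and Mki67 at 455, 236 and 207 CPM, 2.20-fold lower (2.01 to 2.40).

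Other cell cycle genes, from the S and G2/M lists in common use for scoring, were mostly lower too. Of 30 other S genes, 20 were at least 2-fold lower on the E11.5 cultured and 12 on the E12.5 cultured plate, and of 37 other G2/M genes measured, 15 and 13, against 11.3% and 13.1% of all genes. The strongest were Exo1, an exonuclease of repair, at 76.95 CPM uncultured against 18.998 on the E11.5 cultured plate, and Kif20b, a motor of cytokinesis, at 82.1 against 17.03 on the E12.5 cultured plate. Fen1, which trims Okazaki fragments, stood at 119.8, 42.6 and 35.2 CPM. None of these genes was at least 2-fold higher on either cultured plate, against 20.8% and 18.9% of all genes. Gas2l3, a cytoskeletal linker of late mitosis, was nearest to it at 22.4, 25.97 and 33.3 CPM, and Psrc1, a spindle protein, stood at 33.7, 32.4 and 40.2 CPM. Between the cultured plates none of them passed 2-fold, against 4.51% of all genes lower and 8.32% higher. Nuf2, a kinetochore gene, came nearest on the lower side, at 63.4 on the E12.5 and 33.01 CPM on the E11.5 cultured plate, and Hmgb2, a chromatin protein of dividing cells, on the higher side, at 51.1 and 87.2 CPM.

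The lower sums were uneven over wells. To compare wells of unequal depth, each was thinned to 1000 counts drawn without replacement, and a well with at least 3 counts of a list was taken as high for it. This cut is a point in a range and not a cell type: on the uncultured plate 34.1% of wells lay at 2 to 4 mitosis counts. High wells for mitosis made up 48.96% of the uncultured plate (43.5 to 54.4%), 23.5% after culture from E12.5 (17.8 to 30%) and 15.3% after culture from E11.5 (11.4 to 19.9%). For replication the shares were 40.7%, 20.5% and 14.7%. Unthinned, 92.3%, 57% and 48% of wells had at least 3 mitosis counts. Wells with 10 or more mitosis counts of 1000 made up 6.53% (4.14 to 9.72%), 4% (1.74 to 7.73%) and 6% (3.59 to 9.32%), with overlapping intervals. Those with 6 to 9 mitosis counts were fewer after culture, at 13.4% (9.91 to 17.5%), 6.5% (3.51 to 10.9%) and 5.67% (3.34 to 8.92%). Wells without any mitosis count made up 16.3%, 53% and 63%. The tenth of wells with the most mitosis counts held 32.7% of these counts on the uncultured, 54.8% on the E12.5 cultured and 66.9% on the E11.5 cultured plate, and for replication counts 28.0%, 39.7% and 44.97%. The variance of mitosis counts over their mean, which is 1 for random sampling of equal cells, was 3.43, 5.6 and 6.99.

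**Figure D3:**
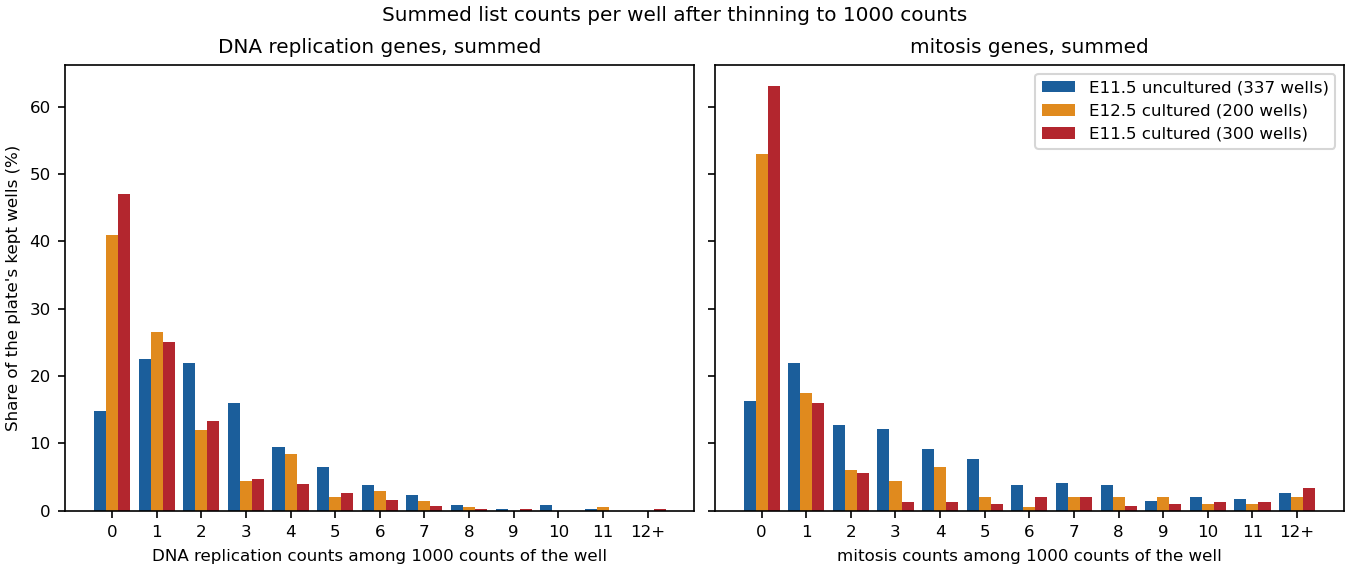
Share of wells (percent of the plate's kept wells) by the number of replication counts (left) or mitosis counts (right) among 1000 drawn counts, for the 3 plates. Wells without a mitosis count are 16.3% on the uncultured, 53% on the E12.5 cultured and 63% on the E11.5 cultured plate. Wells with 6 to 9 are 13.4%, 6.5% and 5.67%, and wells with 10 or more are 6.53%, 4% and 6%.

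Wells high for both lists numbered 75 of 337, 13 of 200 and 12 of 300, and wells high for neither 110, 125 and 222. Replication was high in 45.5% of the wells high for mitosis and in 36.0% of the others on the uncultured plate, with overlapping intervals. On the cultured plates these shares were 27.7% against 18.3% and 26.1% against 12.6%, with overlapping intervals on each.

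Wells labelled as controls were measured in the same way. On the uncultured plate 15 control wells had a median of 632 counts, 7 of them reached 1000, and their RNA held 2397 replication CPM (1650 to 3366) and 4213 mitosis CPM (3199 to 5446), near the levels of the kept wells. After thinning, 5 and 6 of these 7 wells were high for replication and mitosis, so a shallow well of that plate cannot be told apart from a control well by these genes. Keeping only wells from 5000 counts gave ratios of the E11.5 cultured to the uncultured plate of 0.463 for replication and 0.427 for mitosis and mitosis-high shares of 53.2%, 24.4% and 16.4%. On the cultured plates the control wells had medians of 129 and 150 counts, none reached 1000, and they held 8 and 3 counts of the 2 lists in all. As a reference for mostly non-dividing cells, wells with counts of at least 3 of 8 neuron genes were set apart. On the E11.5 cultured plate 11 such wells, at a median depth of 11371 counts, held 747 replication CPM (636 to 871) and 1623 mitosis CPM (1458 to 1802), below the 1232 and 1905 CPM of all kept wells, of which they are part. After thinning, 2 of these 11 wells had any mitosis count, 1 was high for mitosis and 0 were high for replication. Their mean was 0.545 mitosis counts, against 1.56 in all kept wells. The E12.5 cultured plate had 3 such wells, with 484 replication CPM (296 to 747) and 1040 mitosis CPM (753 to 1401), below 1667 and 2047 CPM. After thinning, 1 of the 3 was high for mitosis and 0 were high for replication. The mean of these 3 was 1.67 mitosis counts, against 1.815 in all kept wells. On the uncultured plate 16 such wells had a median of 57246 counts and 4732 mitosis CPM. After thinning, 9 of these 16 wells (56.25%) were high for mitosis, against 48.96% of all kept wells. For replication 5 (31.25%) were high, against 40.7%. They thus give no low reference for mitosis there, and whether these wells hold mostly non-dividing cells was not tested.

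Both cultured plates had 42 wells labelled as holding more than 1 cell, of which 38 and 36 passed the filters at median depths of 11730 and 10168 counts. Against the single-cell wells of the same plate, replication genes stood at 1990 against 1667 CPM on the E12.5 cultured plate, a ratio of 1.19 (1.12 to 1.27), and mitosis genes at 2449 against 2047 CPM, 1.20 (1.13 to 1.27). On the E11.5 cultured plate replication genes stood at 939 against 1232 CPM, 0.762 (0.698 to 0.831), and mitosis genes at 1814 against 1905 CPM, 0.952 (0.893 to 1.01). The plates thus went opposite ways for replication. The E11.5 mitosis value leaned on 1 well of 169065 counts, which held 40.6% of the mitosis counts of its set, and without wells over 3 times the median depth that ratio was 0.468 (0.413 to 0.529). On the E12.5 cultured plate the same step gave 1.02 (0.947 to 1.095). After thinning, 23.7% of E12.5 multi-cell wells were high for mitosis against 23.5% of single-cell wells, and 13.9% against 15.3% on the E11.5 plate. For replication the shares were 23.7% (11.4 to 40.2%) against 20.5% and 11.1% (3.11 to 26.1%) against 14.7%, with overlapping intervals on both plates.

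By gene, 9 of 38 were at least 1.5-fold higher in multi-cell wells of the E12.5 cultured plate, against 20.1% of 13602 genes, and 1 was 1.5-fold lower, against 20.7%. The share of higher genes is near that of all genes. Cenpf stood at 113.7 against 64.3 CPM (1.77, 1.32 to 2.36) and Rfc4 at 73.2 against 41.7 CPM (1.76, 1.21 to 2.51). Gins2 was the gene lower there, at 42.1 against 78.8 CPM (0.534, 0.343 to 0.803). On the E11.5 cultured plate 7 of 38 were at least 1.5-fold lower, against 21.1% of 14431 genes, and 1 higher, against 13.1%. Here the share of lower genes over both lists is near that of all genes, but the lists differed. The lower genes were 5 of 16 replication and 2 of 22 mitosis genes. Median log2 ratios were -0.34 and -0.12, against -0.08 over all genes. The lower genes included Mcm5, at 44.4 against 99.04 CPM (0.448, 0.293 to 0.661), and Aurka, at 14.3 against 32.1 CPM (0.445, 0.198 to 0.878). Ccnb1 was the higher one, at 98.3 against 63.5 CPM (1.55, 1.15 to 2.07). The subunits of the MCM helicase did not keep a common ratio: Mcm7 was at 1.57 of the single-cell level for E12.5 and 1.15 for E11.5, while Mcm5 and Mcm6 of the E11.5 cultured plate were at 0.448 and 0.598.

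**Figure D4:**
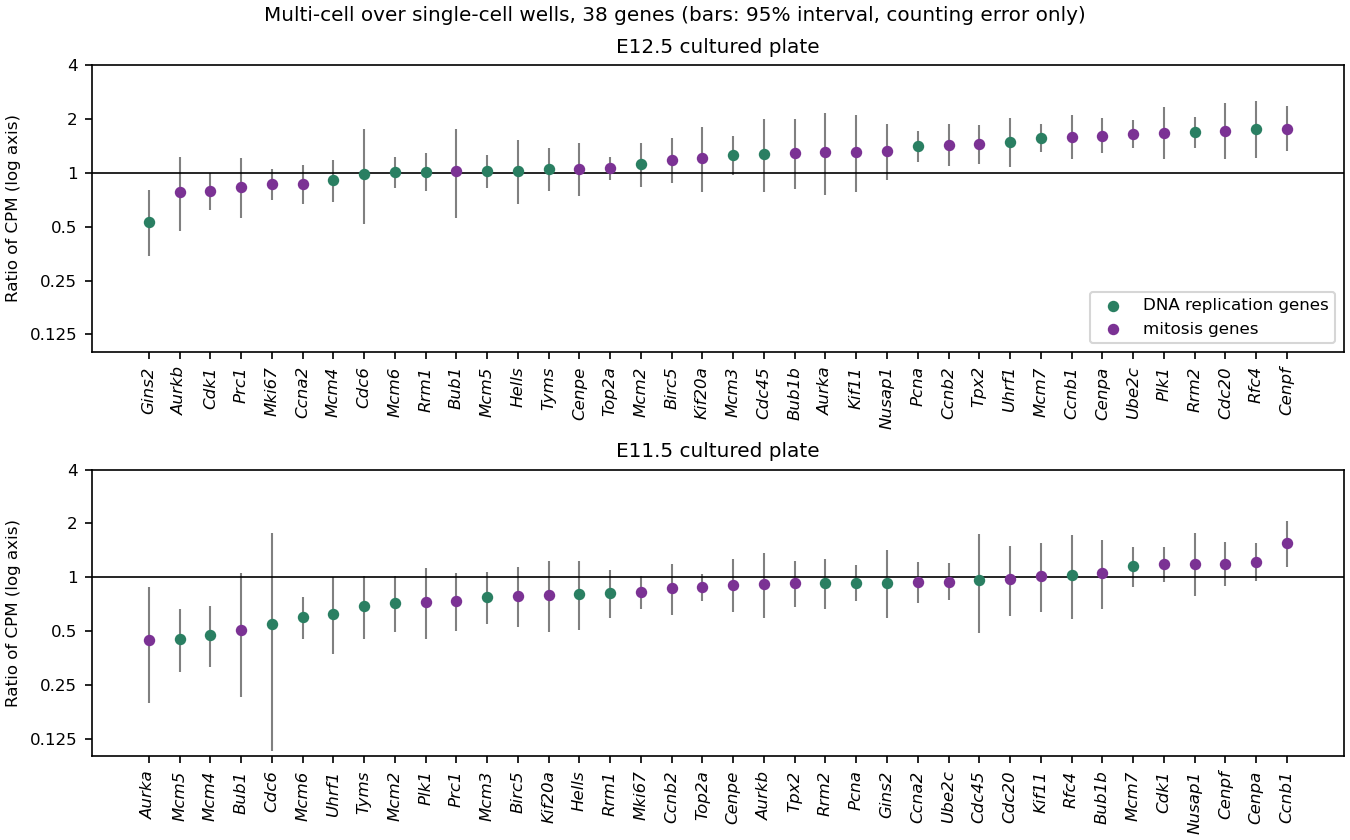
Ratio of CPM of multi-cell over single-cell wells for each gene on the E12.5 cultured (top) and E11.5 cultured plate (bottom), log axis, with 95% intervals. Gins2 is lowest at 0.534 and Cenpf highest at 1.77 in the upper panel, and Aurka (0.445) and Ccnb1 (1.55) in the lower.

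Wells in which a cell type marker was counted were compared with wells of the same plate without it. Such wells had a higher median depth in each comparison but Foxd1 on the E12.5 cultured plate (9212 against 9287 counts). Shares after thinning therefore stand beside the CPM, and a well may carry several markers. Six2 marks nephron progenitors and was counted in 161 of 337 uncultured wells, at a median depth of 9671 counts against 5765 in the others. In these the replication genes stood at 2857 against 2225 CPM (ratio 1.28, 1.23 to 1.34) and the mitosis genes at 4425 against 4350 CPM (1.02, 0.985 to 1.05). The replication-high share was 47.8% (39.9 to 55.8%) against 34.1% (27.1 to 41.6%), intervals that overlap slightly, and the mitosis-high share 48.4% against 49.4%. The ratio of all 16 replication genes lay above 1, from 1.04 for Tyms to 1.47 for Rfc4, with intervals above 1 for 9 of 16, against 10.5% of genes, and 0 of 16 were at least 1.5-fold higher, against 12% of genes. With the marker sought among the thinned counts alone the replication ratio was 1.24 (1.19 to 1.29).

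Six2 wells of the cultured plates were few. On the E12.5 cultured plate 41 of 200 wells had it, with replication at 1.02 (0.955 to 1.10) and mitosis at 1.04 (0.981 to 1.11) of the level of the others. Their replication-high share was 24.4% against 19.5% and their mitosis-high share 34.1% against 20.8%, with overlapping intervals. On the E11.5 cultured plate 52 of 300 wells had it, with replication at 1460 against 1174 CPM (1.24, 1.15 to 1.34) and mitosis at 2842 against 1669 CPM (1.70, 1.61 to 1.80). There 17 of 22 mitosis genes were at least 1.5-fold higher, against 10.8% of 13893 genes. Among them were Top2a at 459.98 against 238 CPM (1.93, 1.68 to 2.22), Mki67 at 329 against 177 CPM (1.86, 1.57 to 2.19) and Ccnb1 at 103 against 53.5 CPM (1.93, 1.42 to 2.61). Of the 52 wells, 1 held 17.98% of their mitosis counts. The mitosis-high share was 23.1% (12.53 to 36.8%) against 13.7% (9.68 to 18.6%). The replication-high share lay on the other side, at 11.54% (4.35 to 23.4%) against 15.3% (11.1 to 20.4%), with overlapping intervals. For wells with at least 2 Six2 counts the mitosis ratio was 1.21 (1.10 to 1.34), and where Six2 was sought among thinned counts, which left 11 wells, it was 1.06 (0.938 to 1.20).

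Epcam marks epithelial cells. It was counted in 38 uncultured, 17 E12.5 cultured and 10 E11.5 cultured wells, and the mitosis genes there stood at 1.14, 1.53 and 0.859 of the level of the other wells. In each of these sets 1 well held a large part of the mitosis counts, at 31.98%, 26.9% and 69.3%. Without wells over 3 times the median depth the uncultured ratio was 0.877 (0.818 to 0.939), below 1. Replication stood at 0.986, 1.17 and 0.687, while the replication-high share was lower in Epcam wells on each plate, at 31.6% against 41.8%, 11.8% against 21.3% and 10% against 14.8%, with overlapping intervals. The mitosis-high shares were 50% against 48.8%, 29.4% against 22.95% and 10% against 15.5%, with overlapping intervals on all 3 plates.

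Foxd1 marks stromal progenitors and was counted in 205, 96 and 101 wells. Mitosis genes stood at 4463 against 4250 CPM on the uncultured, 2331 against 1784 on the E12.5 cultured and 2178 against 1725 on the E11.5 cultured plate, ratios of 1.05, 1.31 and 1.26, while replication stood at 0.999, 1.02 and 0.929. The replication-high shares in Foxd1 wells and other wells were 36.1% and 47.7%, 22.9% and 18.3%, and 16.8% and 13.6%, with overlapping intervals on each plate. After thinning, the mitosis-high shares in Foxd1 wells and other wells were 47.8% and 50.8%, 23.96% and 23.1%, and 19.8% and 13.1%, with overlapping intervals on each plate. Where Foxd1 was sought among thinned counts the mitosis ratios were 0.799, 0.736 and 0.943, on the other side of 1, the last with an interval that included 1. Col1a1, the main collagen of stroma, was counted in 246 of 337 uncultured wells, with replication at 2629 against 2785 CPM (0.944) and mitosis at 4359 against 4560.0 CPM (0.956), and mitosis-high shares of 45.1% (38.8 to 51.6%) and 59.3% (48.5 to 69.5%). The replication-high shares were 38.6% and 46.2%, with overlapping intervals. With Col1a1 among the thinned counts, in 137 wells against 200, the replication-high shares were 27.7% and 49.5%. The mitosis-high shares were then 37.96% and 56.5%, while the ratios of CPM were 0.858 for replication (0.825 to 0.892) and 1.06 for mitosis (1.03 to 1.09). On the cultured plates 199 of 200 and 300 of 300 wells had a Col1a1 count, so these could be split only by Col1a1 among the thinned counts, into 180 and 20 wells and 287 and 13 wells. On the E12.5 cultured plate the replication ratio was then 1.12 (1.01 to 1.23) and the mitosis ratio 1.05 (0.963 to 1.15). In E11.5 cultured wells they were 0.575 (0.512 to 0.647) and 0.588 (0.535 to 0.647).

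**Figure D5:**
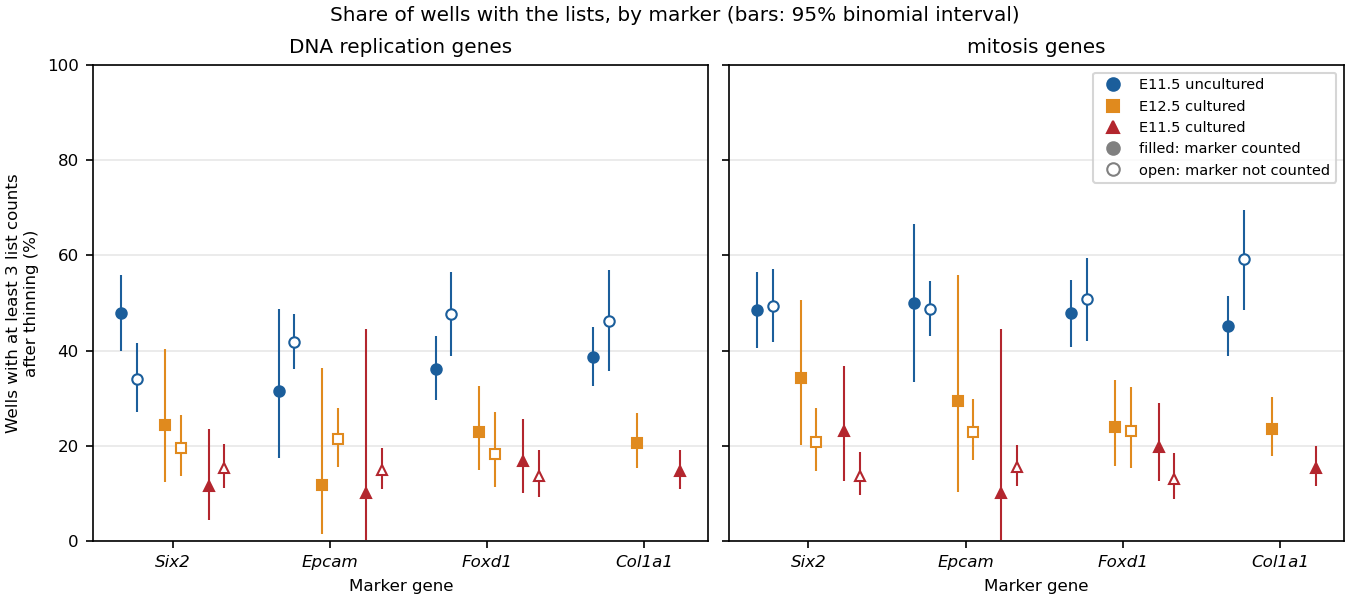
Share of wells (percent) with at least 3 replication counts (left) or mitosis counts (right) among 1000 drawn counts, in wells with (filled) and without (open) a count of each marker, by plate, with 95% binomial intervals. Uncultured wells lie above cultured wells for most markers, and Six2 wells of the uncultured plate reach 47.8% for replication against 34.1% without Six2.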

How the data were processed

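The values were estimated counts per gene and well, which the authors had corrected for molecular identifiers and deposited as 1 table per plate. Per the submitters' processing notes, STAR 2.6.1a, featureCounts 1.5.2 and GRCm38.p5 were used, with roles not given in the sources used here. Control wells, multi-cell wells, wells under 1000 counts and wells over 30% mitochondrial counts were left out of the single-cell sums, and no doublet caller was run. Values were divided by the total of nuclear-encoded mouse genes, without mitochondrial genes, spike-ins and added sequences, and given per 1000000. Counts with no known barcode came to 4.21% to 4.27% of each table. Intervals at 95% are exact Poisson for levels, exact conditional binomial for ratios and exact Clopper-Pearson for shares, and cover counting error only. Sums were rounded to whole counts for ratios, and features with at least 10 counts in a pair of sums were compared, at 2-fold between plates and 1.5-fold within a plate. Thinning drew 1000 counts per well without replacement with a fixed seed, and the steps were checked on simulated counts. The analysis used Python 3.11.15, numpy 2.4.6, pandas 2.3.3 and scipy 1.17.1, with figures by matplotlib 3.10.9.

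The genes, lists and comparisons were chosen with earlier results of these data known. Named with values in every plate were, by rule, the 6 genes of each list with most counts. So were the members with the 2 highest and 2 lowest ratios of each plate pair, among those with at least 50 counts. For multi-cell wells and for other cell cycle genes only some of the genes so ranked are named, not all with values in every plate. Other members are named for their role. With 1 plate per group no test between groups was made. The alternatives, whose effect the closing section gives, were 2 other depth minimums, leaving out wells over 3 times the median depth, a mean over wells, leaving out the ribosomal-repeat gene Gm42418 (2.13% to 5.14% of counts), another thinning depth and draw, other count minimums, other marker rules and multi-cell wells set against rows A to G alone.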

Additional observations from a re-analysis of the deposited data

Results flagged for a closer look

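Between plates, 3 within-plate contrasts went opposite ways beyond counting error. Each plate is 1 sample, so the difference between plates was not tested. The replication genes of multi-cell wells stood at 1.19 of the single-cell level on the E12.5 cultured plate (1.12 to 1.27) and at 0.762 on the E11.5 cultured plate (0.698 to 0.831), while the thinned replication-high shares, 23.7% against 20.5% and 11.1% against 14.7%, had overlapping intervals on both plates. In wells with Epcam, a gene of epithelial cells, they stood at 1.17 of the level of other wells on the E12.5 cultured plate and at 0.687 on the E11.5 cultured plate. Other measures of these wells did not go opposite ways: replication-high shares were 11.8% against 21.3% and 10% against 14.8%, and with Epcam among the thinned counts, which left 2 and 4 wells, the ratios were 1.31 (0.946 to 1.77) and 1.09 (0.836 to 1.39). The mitosis genes in Epcam wells stood at 1.14 on the uncultured, 1.53 on the E12.5 cultured and 0.859 on the E11.5 cultured plate, and these sets of 38, 17 and 10 wells each had 1 well with 31.98%, 26.9% and 69.3% of the mitosis counts.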

How the results depend on the processing

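No paired analysis was possible because each group was 1 plate, and for the same reason no replicate could be left out. Of 296 recomputed values of the main results, 233 stayed within their interval or within 1.5 times their count, and 52 moved. The other 11 crossed 1 where the main interval had excluded it, and "across 1" below has this sense. Ratios that crossed 1 from a main interval that included it are counted as stayed or moved. Of 570 values for single genes, 559 stayed and 11 moved. The ratios of list sums between plates kept their side of 1 under every alternative tried. Without wells over 3 times the median depth the E11.5 cultured over uncultured ratio was 0.501 for replication, with 4 genes at least 2-fold lower in place of 8, and 0.447 for mitosis, and the E12.5 cultured over uncultured ratio was 0.655 and 0.486. By the mean over wells, mitosis was 0.485 for E12.5 cultured over uncultured and 0.894 for E11.5 over E12.5 cultured, and 1 other cell cycle gene was 2-fold lower between the cultured plates in place of 0. Without Gm42418, E11.5 cultured over uncultured mitosis was 0.4196. Thinned to 2000 counts, wells high for replication, mitosis and both were 74.2%, 72.6% and 58.3% uncultured, 40%, 31.3% and 21.03% E12.5 cultured and 28.6%, 22.6% and 12.8% E11.5 cultured, as more counts are drawn against the same minimum of 3. Another draw gave 27.3% high for both on the uncultured plate.

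Comparisons within a plate depended more on the setting, and the cause was not tested. For multi-cell wells, mitosis was 1.02 (E12.5) and 0.468 (E11.5) without the deep wells, and 1.38 for E12.5 against rows A to G. In E11.5 the replication ratio was 0.670 against rows A to G, and by the mean over wells replication was 0.864 and mitosis 0.831. For marker wells without the deep wells, the uncultured ratios were 1.39 for Six2 replication, 0.946 for Epcam replication, 0.877 for Epcam mitosis, 0.996 for Foxd1 mitosis and 1.02 for Col1a1 mitosis, the last 3 across 1. Cultured mitosis ratios were then 1.18 (Six2, E12.5), 1.203 (Foxd1, E12.5) and 1.44 (Foxd1, E11.5). By the mean over wells, the uncultured plate gave 1.35 for Six2 replication, 0.953 for Six2 mitosis and 1.03 for Epcam mitosis. The E12.5 plate gave 1.04 for Epcam replication, 1.09 for Foxd1 replication and 1.18 for Foxd1 mitosis, and the E11.5 cultured plate 0.715 for Epcam mitosis and 1.11 for Foxd1 replication, the last across 1. From 5000 counts per well, a setting chosen after seeing the data, uncultured mitosis was 0.956 for Six2 and 1.10 for Epcam. With at least 2 marker counts, uncultured mitosis was 0.966 for Epcam (across 1) and 1.097 for Foxd1. E12.5 gave 1.15 for Six2 replication, and for mitosis 1.26 (Six2), 1.21 (Epcam) and 1.02 (Foxd1). E11.5 cultured gave 1.15 for Six2 replication, 1.21 for Six2 mitosis, 1.01 for Foxd1 replication (across 1) and 1.46 for Foxd1 mitosis. With the marker among the thinned counts, uncultured replication and mitosis were 0.652 and 0.439 for Epcam, 0.938 and 0.799 for Foxd1 and 0.858 and 1.06 for Col1a1, all 3 mitosis values across 1. Foxd1 mitosis was 0.736 in E12.5 and 0.943 in E11.5 cultured wells, both across 1, and Six2 in E11.5 cultured wells gave 1.402 for replication and 1.06 for mitosis.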
